A study of Mus musculus with 9 samples.

Results

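The 6 genes described here encode a neuropeptide (Npy), neural adhesion molecules of the immunoglobulin superfamily (Nrcam and Ntm), neurotrophins (Bdnf and Ntf3) and the neurotrophin receptor p75 (Ngfr). They were taken by gene symbol from the deposited table, which holds 37980 rows, and each of the 6 symbols had 1 row. All 6 also passed the filter of the test, at least 1 FPKM in at least 3 libraries, which 11509 protein-coding genes passed. Npy passed through the older ages alone, since no 3-month library reached 1 FPKM.

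The cells were hair follicle stem cells sorted from the back and belly skin of male C57BL/6J mice as CD49f-high, CD34+ cells, the surface pair that marks the follicle bulge. Mice were 3, 19 or 24 months old, with no treatment or altered gene named in the labels, and each age had 3 libraries, 9 in all. Whether each library came from its own animals is not given, so errors and p-values here cover library-to-library spread, part of which may be technical. The sample numbers in the labels run on without a gap from 19 to 24 months but not from 3 to 19 months, so a difference in handling between 3 months and the older ages cannot be told apart from age.

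Neurotrophins are secreted proteins that bind Trk receptor kinases and p75, and that keep sensory and sympathetic neurons alive. Skin is densely innervated, keratinocytes of the mouse make neurotrophins, and these proteins are known to act on the hair cycle as well as on nerves. Neuropeptide Y is a transmitter of sympathetic nerves. Nrcam belongs to the L1 family, whose members bind one another and the ankyrins of the membrane skeleton, and Ntm (neurotrimin) is one of the GPI-anchored IgLON proteins that guide contacts between neurites.

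Values are FPKM (fragments per transcript length, scaled to all mapped fragments in the library), and the depth of the libraries is unknown. Cd34 stood at 403 to 632 FPKM and Itga6, the gene of CD49f, at 72.7 to 116 FPKM in the 9 libraries. Some of the 12 tested bulge markers differed with age. At 19 against 3 months 3 were called, where 1.56% of all tested genes were. These were Cxcl14, Nfatc1 and Sox9, higher, with log2 differences of 1.07, 0.78 and 0.66. Lgr5, at -0.63, Itga6 and Col17a1 lay below 0 there. At 24 against 3 months 1 was called, where 3.84% of all tested genes were. This was Lgr5, lower, with a log2 difference of -1.01. Cd34, Itga6 and Tcf3 also lay below 0 there, and the other tested markers above 0. Krt15, a bulge keratin, was listed at 0 in all 9 libraries and the basal keratin Krt5 at 0 in the 3 libraries of 19 months, so some zeros of the table are failed estimates. Differences are on the log2(FPKM + 1) scale with limma's standard error (SE), and they understate the change of low genes. Because the 6 genes were chosen with their values at the 3 ages known, their differences are a description and carry no p-value.

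Npy was listed at 0 or below 1 FPKM at 3 months, stood higher at 19 months and higher again at 24 months, and the libraries of no pair of ages overlapped. At 3 months it was listed at 0 FPKM in replicates 1 and 3 and at 0.494 FPKM in replicate 2. At 19 months it stood at 0.842, 2.55 and 1.62 FPKM in replicates 1, 2 and 3, and at 24 months at 3.999, 3.04 and 5.72 FPKM in replicates 2, 3 and 4. The highest 3-month library therefore lay below the lowest 19-month library, and the highest 19-month library below the lowest 24-month library. The zeros at 3 months may be failed estimates, as some zeros of the table are. Replicate 2, at 0.494 FPKM, is then the only young value above 0, and the order and differences from 3 months rest on these libraries. The log2 difference was 1.17 ± 0.26 (SE) at 19 against 3 months, 2.17 ± 0.26 at 24 against 3 months and 0.99 ± 0.26 at 24 against 19 months. With a pseudocount of 0.1 the differences from 3 months became 3.17 ± 0.61 and 4.54 ± 0.61, so for this low gene the size depends on the pseudocount. No ratio is given, as Npy was listed at 0 in 2 of the 3 young libraries. Even so, its mean log2 level over the 9 libraries was above that of no more than 7.68% of the tested genes.

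Nrcam went the other way. It stood at 11.04, 8.09 and 7.80 FPKM at 3 months, at 3.42, 4.37 and 4.17 FPKM at 19 months (replicates 1, 2 and 3 in each) and at 1.83, 2.10 and 2.62 FPKM at 24 months (replicates 2, 3 and 4). The 3 ages were again fully separate, with every 19-month library between the lowest young and the highest 24-month library. Its mean ± SD over 3 libraries was 8.98 ± 1.79 FPKM when young, 3.99 ± 0.503 FPKM at 19 months and 2.18 ± 0.399 FPKM at 24 months, so the mean at 19 months was 0.444 times that at 3 months and the mean at 24 months 0.243 times. The log2 differences were -0.99 ± 0.18 at 19 against 3 months, -1.64 ± 0.18 at 24 against 3 months and -0.65 ± 0.18 at 24 against 19 months. The FPKM of Npy divided by that of Nrcam was at most 0.061 in the 3-month libraries, 0.246 to 0.583 at 19 months and 1.44 to 2.19 at 24 months. The values at 3 months include the 2 zeros of Npy, which may be failed estimates.

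A stepwise order with no overlap at either step was found in a small share of the tested genes. Of 11509, 30 (0.261%) rose from age to age in this way, as Npy did, and 105 (0.912%) fell in this way, as Nrcam did. Both genes were chosen with these values known, so nothing is read from their place among them.

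**Figure D1:**
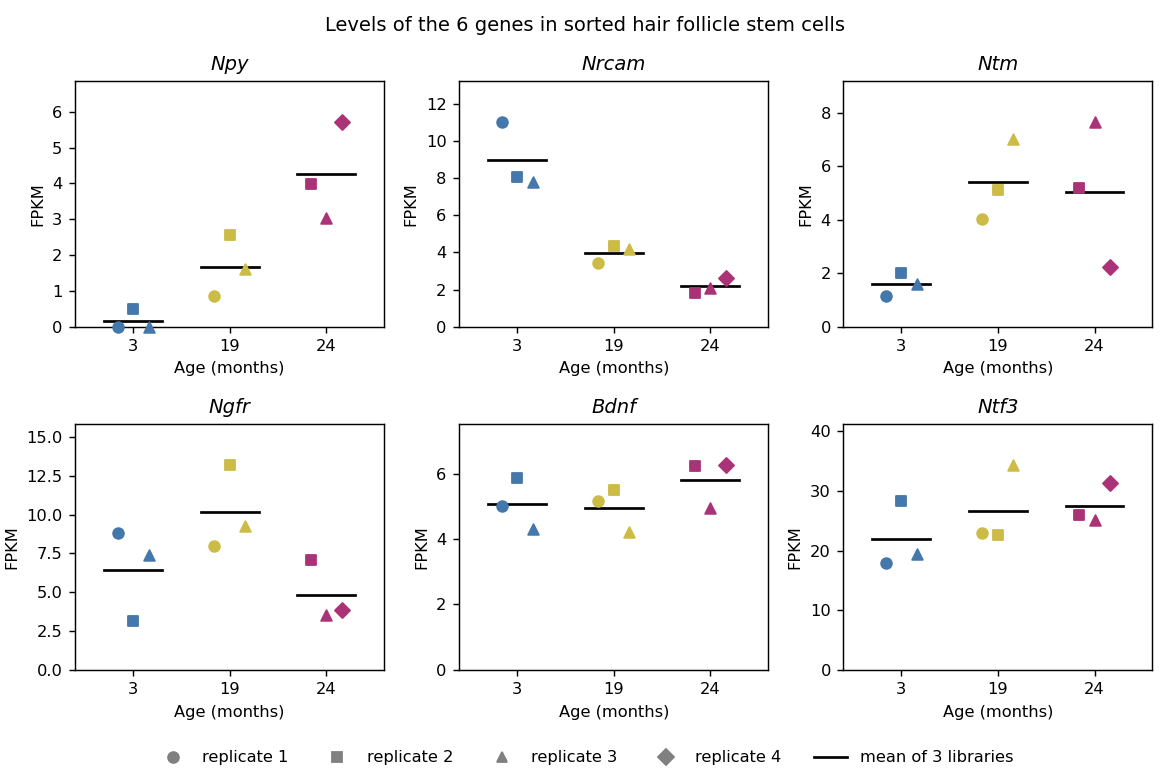
FPKM of each of the 6 genes (vertical axis, from 0) in the 9 libraries at 3, 19 and 24 months (horizontal axis), with marker shapes for the replicate numbers of the labels and black bars for the mean of 3 libraries. Npy climbs from at most 0.494 to at least 3.04 FPKM and Nrcam drops from at least 7.80 to at most 2.62 FPKM, while Bdnf stays between 4.21 and 6.27 FPKM at all ages.

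The promoters of Npy and Nrcam are shown because these are the genes whose levels separated all 3 ages, in opposite directions. RefSeq lists 1 start site for each on the mouse build GRCm38.p6, on the plus strand. The windows are 300 bases long and span the start, at chr6:49822460-49822759 and chr12:44328635-44328934, and these positions are not on the build of the deposited table. Capitals mark matches to the GC box GGGCGG on either strand.
Npy: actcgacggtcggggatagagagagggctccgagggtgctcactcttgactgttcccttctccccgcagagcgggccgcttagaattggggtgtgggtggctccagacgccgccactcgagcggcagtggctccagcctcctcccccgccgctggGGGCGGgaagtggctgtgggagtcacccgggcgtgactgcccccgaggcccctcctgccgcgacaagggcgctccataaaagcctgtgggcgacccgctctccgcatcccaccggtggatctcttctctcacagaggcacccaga
Nrcam: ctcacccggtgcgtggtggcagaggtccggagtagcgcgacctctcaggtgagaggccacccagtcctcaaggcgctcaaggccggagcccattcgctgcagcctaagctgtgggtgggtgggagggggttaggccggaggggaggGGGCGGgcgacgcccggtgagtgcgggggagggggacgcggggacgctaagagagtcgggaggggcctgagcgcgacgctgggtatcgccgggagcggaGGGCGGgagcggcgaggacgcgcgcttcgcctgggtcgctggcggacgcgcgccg
Both windows were rich in G and C, at 68.0% and 74.0%, against a median of 52.7% over the 32851 promoter windows of the table. They held 24 and 37 CpG dinucleotides, against a median of 7. A GC box was matched at 1 position for Npy and at 2 for Nrcam, and 35.7% of all windows hold at least 1. The CCAAT box, which 37.4% of windows hold on one strand or the other, was matched at 1 position for Npy and at 0 for Nrcam. The letters TATAAA of the TATA box, held by 13.6% of windows, had 0 matches in either. The E-box CACGTG is held by 7.15% of windows and had 0 matches in either. The cyclic AMP response element, held by 1.79% of windows in its full palindrome, likewise had 0. A match is a run of letters in the window and was not tested as a binding site.

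Ntm was the second adhesion gene, and its level was low at 3 months and higher in every older library. It stood at 1.15, 1.99 and 1.61 FPKM at 3 months and at 4.05, 5.12 and 7.03 FPKM at 19 months (replicates 1, 2 and 3 in each), and at 5.20, 7.66 and 2.22 FPKM at 24 months (replicates 2, 3 and 4). Replicate 4 of 24 months lay close above the highest young library, and the 19- and 24-month libraries overlapped. The mean was 1.59 ± 0.420 FPKM when young, 5.40 ± 1.51 FPKM at 19 months and 5.03 ± 2.73 FPKM at 24 months (SD, n = 3). The log2 difference was 1.29 ± 0.29 at 19 against 3 months and 1.12 ± 0.29 at 24 against 3 months, while that of 24 against 19 months was -0.17 ± 0.29, less than its SE. The SD of Ntm among libraries of one age, 0.48 in log2 units, exceeded that of 97.3% of the tested genes. Nrcam, with 0.20, exceeded 44.8%.

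The neurotrophin genes Bdnf and Ntf3 differed little between ages. Bdnf, whose product binds the receptor TrkB, stood at 5.02, 5.88 and 4.32 FPKM at 3 months, at 5.18, 5.52 and 4.21 FPKM at 19 months and at 6.25, 4.94 and 6.27 FPKM at 24 months, with means of 5.07 ± 0.783, 4.97 ± 0.678 and 5.82 ± 0.759 FPKM (SD, n = 3). Its libraries overlapped in all 3 comparisons, and its log2 differences were -0.02, 0.17 and 0.19, each ± 0.17. Ntf3, the gene of neurotrophin-3, was the most abundant of the 6 genes in every library. It stood at 18.0, 28.3 and 19.4 FPKM at 3 months, at 23.0, 22.6 and 34.3 FPKM at 19 months and at 26.0, 25.1 and 31.3 FPKM at 24 months, so libraries of every age overlapped. The log2 differences were 0.27, 0.33 and 0.06, each ± 0.19. The FPKM of Ntf3 was 3.59 to 8.16 times that of Bdnf within a library.

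Ngfr encodes p75, the receptor that binds all neurotrophins and that acts with the Trk receptors or with sortilin. It varied within an age as widely as between ages. It stood at 8.81, 3.12 and 7.41 FPKM at 3 months, at 7.97, 13.2 and 9.26 FPKM at 19 months (replicates 1, 2 and 3 in each) and at 7.05, 3.53 and 3.84 FPKM at 24 months (replicates 2, 3 and 4). The 3-month libraries spanned most of this range and overlapped both older ages, while every 24-month library lay below every 19-month library. The log2 differences were 0.65 ± 0.30 at 19 against 3 months, -0.32 ± 0.30 at 24 against 3 months and -0.96 ± 0.30 at 24 against 19 months. Its means were 6.45 ± 2.96, 10.1 ± 2.71 and 4.80 ± 1.95 FPKM (SD, n = 3). Libraries of one age differed by a pooled SD of 0.51 in log2 units, above that of 97.8% of the tested genes.

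In the order of mean FPKM over the 9 libraries the genes stood at 25.3 (Ntf3), 7.13 (Ngfr), 5.29 (Bdnf), 5.05 (Nrcam), 4.004 (Ntm) and 2.03 (Npy). Ntf3 lay above the others in every library, and the ranges of the next 4 overlapped. The order among those depended on age. Nrcam had the highest mean of the 4 at 3 months and the lowest at 19 and 24 months.

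**Figure D2:**
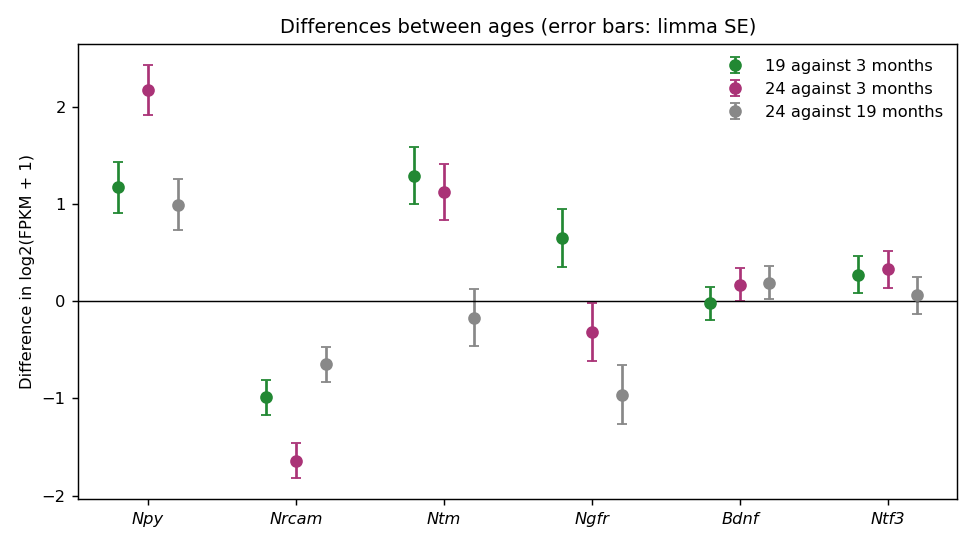
Difference in log2(FPKM + 1) (vertical axis) of the 6 genes (horizontal axis) at 19 against 3 months (green), 24 against 3 months (purple) and 24 against 19 months (grey), with bars of 1 limma SE, from a fit of 3 libraries per age. Npy at 2.17 and Nrcam at -1.64 are the farthest from 0, Ntm is above 0 at both older ages, and the values of Bdnf and Ntf3 lie between -0.02 and 0.33.

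Counted in the limma fit of protein-coding genes at a Benjamini-Hochberg adjusted p under 0.05, 3 of the 6 genes were called at 19 against 3 months (Npy and Ntm higher, Nrcam lower), where 1.56% of all tested genes were called, 0.6% higher and 0.964% lower. The same 3 genes were called at 24 against 3 months, in the same directions, where 3.84% were called, 1.5% higher and 2.34% lower. At 24 against 19 months limma called 0 of 6, where 0.93% were called, and 3 of the 6 had an unadjusted p under 0.05, as had 12.8% of all tested genes. By libraries that did not overlap, 3 of 6 genes separated 19 from 3 months (22.5% of all tested genes), 3 separated 24 from 3 months (22.6%) and 3 separated 24 from 19 months (18.4%). Npy and Nrcam kept their call at 24 against 3 months in each of the 9 fits without 1 library. Ntm lost it without any 1 of the 3 libraries of 3 months, without 19 months replicate 2 or without 24 months replicate 2 or 3, leaving 2 of 6. At 19 against 3 months 0 of 6 were called without 3 months replicate 1, 1 (Nrcam) without 3 months replicate 3 or 19 months replicate 2 or 3, and 2 (Npy and Nrcam) without 3 months replicate 2. Nothing is read from these counts or from calls kept in other fits, since the genes were chosen on these ages. Npy passed the filter through the older ages alone, so a higher call later was favoured. The comparisons with 3 months share their 3 control libraries. The fit of all gene types, with rows listed at 0 kept, called 0, 2 and 0 of the 6. The order is 19 against 3, 24 against 3 and 24 against 19 months, where 0.28%, 0.203% and 0.049% of 14275 rows were called. Without the rows listed at 0 it called 0 of the 6 in each comparison, where 27, 0 and 0 of 14239 rows were called. Without a filter on low values limma called 0 of the 6 at 19 against 3 months, where 53 of 16802 genes were called. At 24 against 3 months it called 2 (Npy and Nrcam), where 118 were called. Ntm also lost its call at 24 against 3 months with quantile normalization or a robust prior.

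Related genes were listed by function, 151 in number in 6 lists that leave out the 6 genes above, and 71 of them passed the filter. At 19 against 3 months, 1 of the 71 was called higher (Gfra2) and 3 lower (Calcrl, Chl1 and Mc5r, the last tested only through its 3-month libraries). There 29 of the 71 lay above 0, as did 5842 of all 11509 genes tested. The median log2 difference was -0.07 against 0.01 over all genes tested. At 24 against 3 months, 1 was called higher (Gfra2) and 1 lower (again Mc5r), and the median was -0.03 against -0.004 over all genes. Above 0 were 33 of the 71 and 5702 of all genes tested. At 24 against 19 months limma called 0 of 71, with 35 of the 71 and 5385 of all genes tested above 0. At an unadjusted limma p under 0.05 were 20 (28.2%) of the 71 at 19 against 3 months and 19 (26.8%) at 24 against 3 months. At 24 against 19 months 8 (11.3%) were. The shares of all tested genes at that unadjusted threshold were 15.7%, 21.6% and 12.8%. The called shares of all genes were 1.56%, 3.84% and 0.93%.

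Of the 17 tested genes of neurotrophin ligands, receptors and processing limma called 0 in each of the 3 comparisons, with 4, 3 and 2 at an unadjusted p under 0.05, where 15.7%, 21.6% and 12.8% of all tested genes were. The list medians were -0.01 and 0.02 at 19 and 24 against 3 months. Ntrk2 and Ntrk3, the genes of the Trk receptors that bind the products of Bdnf and Ntf3, were low. Ntrk2 lay between 0.543 and 2.31 FPKM and was not called at 19 or 24 against 3 months (limma adjusted p = 0.176 and 0.93). Ntrk3 was listed at 0 in 8 of the 9 libraries and reached 0.0937 FPKM in the other. Since some zeros of the table are failed estimates, no absence is claimed. Sort1, the gene of sortilin, lay between 1.33 and 3.71 FPKM (limma adjusted p = 0.606 and 0.387). Ntf5, a further neurotrophin gene, had means of 3.38, 3.38 and 3.49 FPKM at 3, 19 and 24 months. The most abundant tested genes of the list were Maged1 and Ngfrap1, whose products bind p75, and Nradd, a membrane protein related to p75, with ranges of 117.1 to 152 FPKM, 70.9 to 94.1 FPKM and 52.0 to 74.0 FPKM, and none of the 3 was called.

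Gfra2, the GPI-anchored receptor of neurturin, was the 1 called of 14 tested genes of the other neurotrophic factors. It stood at 4.80, 9.36 and 12.4 FPKM at 3 months, at 24.8, 16.7 and 20.96 FPKM at 19 months (replicates 1, 2 and 3 in each) and at 24.6, 18.7 and 12.7 FPKM at 24 months (replicates 2, 3 and 4). Every older library exceeded the highest 3-month library, replicate 4 of 24 months by the smallest margin. Its log2 difference was 1.21 ± 0.27 at 19 months (limma adjusted p = 0.0373) and 1.03 ± 0.27 at 24 months (limma adjusted p = 0.0486). The call at 19 months was kept in 7 of 18 alternatives and lost when 3 months replicate 1 or 2 (adjusted p = 0.15 and 0.0863), any of the 19-month libraries (0.0818, 0.0545 and 0.111) or 24 months replicate 3 (0.0502) was left out. That at 24 months was kept in 5 of 18 and lost for 3 months replicate 1 or 2 (0.127 and 0.109), 19 months replicate 2 or 3 (0.0511 and 0.0524) and 24 months replicate 2 or 3 (0.147 and 0.0875). In the fit of all gene types both were lost (0.208 and 0.176). The list medians were 0.15 and -0.10. Ptn (pleiotrophin), Gfra1 (the GDNF receptor) and Manf, the most abundant tested genes of that list, lay between 1003 and 1542 FPKM, between 41.6 and 69.3 FPKM and between 28.2 and 47.5 FPKM, and none was called.

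In the neuropeptide Y family 2 of 8 further genes passed the filter, and neither was called. Pyy, the gene of peptide YY, stood at 5.68, 11.5 and 3.40 FPKM at 3 months, at 29.7, 13.5 and 6.69 FPKM at 19 months (replicates 1, 2 and 3 in each) and at 24.2, 34.7 and 12.2 FPKM at 24 months (replicates 2, 3 and 4). The 24-month libraries lay above the 3-month libraries, by a small gap for replicate 4, and the 19-month libraries overlapped both. Its log2 difference was 1.67 ± 0.45 at 24 against 3 months (limma adjusted p = 0.052) and 1.08 ± 0.45 at 19 against 3 months (limma adjusted p = 0.261). The difference at 24 months was called in 5 of 18 alternatives, among them those without 19 months replicate 1 or 3 (0.0189 and 0.0215), 24 months replicate 4 (0.0485) and that with only the 6 libraries compared (0.0075). The receptor gene Npy1r, which passed the filter through the older ages alone, lay between 0.339 and 1.45 FPKM, with a log2 difference of 0.54 ± 0.22 at 24 against 3 months (limma adjusted p = 0.165). The receptor genes Npy2r and Npy5r were listed at 0 in all 9 libraries.

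**Figure D3:**
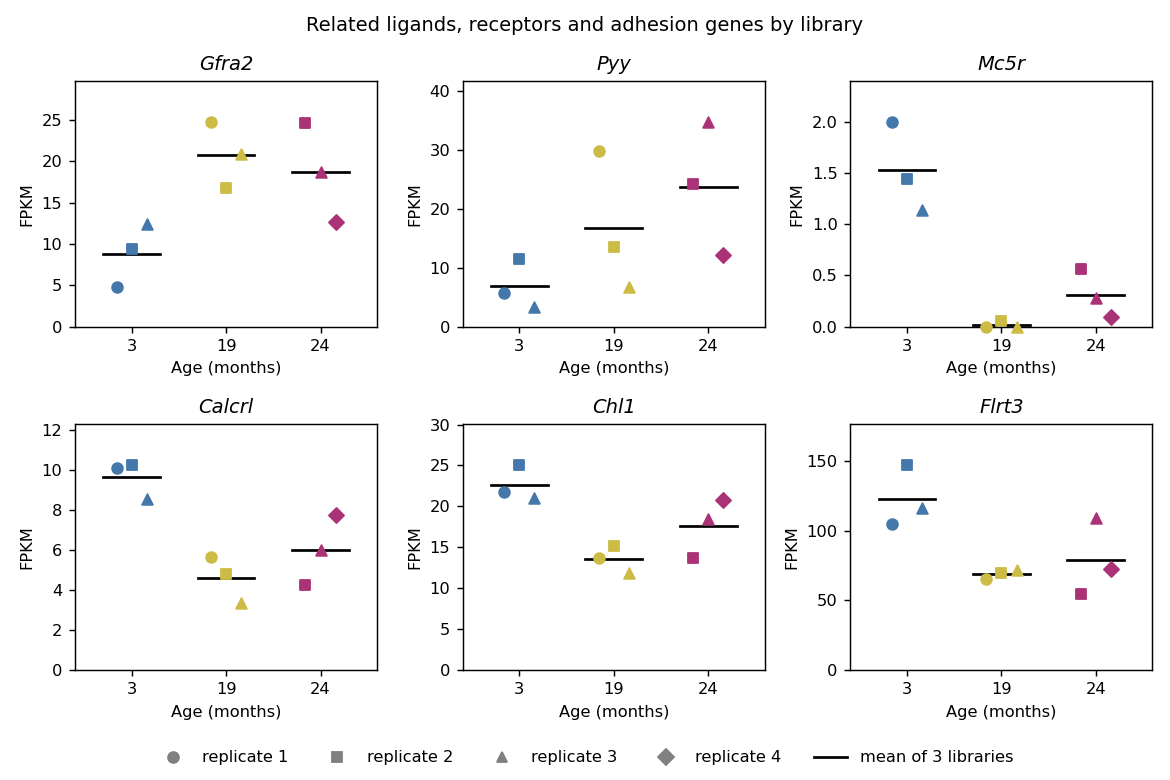
FPKM (vertical axes, from 0) of Gfra2, Pyy, Mc5r, Calcrl, Chl1 and Flrt3 in the 9 libraries at 3, 19 and 24 months, with marker shapes for replicate numbers and black bars for the mean of 3 libraries. Gfra2 lies at 12.4 FPKM or less at 3 months and at 12.7 FPKM or more later, and Mc5r falls from at least 1.14 FPKM to at most 0.567 FPKM.

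Of the 10 tested genes among the other neuropeptides, their receptors and their processing enzymes, 2 were called lower at 19 against 3 months and 1 at 24 against 3 months, with list medians of -0.33 and -0.44. At an unadjusted limma p under 0.05 were 6, 8 and 2 of the 10 in the 3 comparisons. Of all tested genes 15.7%, 21.6% and 12.8% were. Mc5r, the melanocortin receptor known from the sebaceous gland, was at 1.999, 1.44 and 1.14 FPKM at 3 months, at 0, 0.0535 and 0 FPKM at 19 months (replicates 1, 2 and 3 in each) and at 0.567, 0.274 and 0.0983 FPKM at 24 months (replicates 2, 3 and 4). The 3 ages did not overlap in any pair. It passed the filter through the 3-month libraries alone, where it is high, so a lower value later was favoured, and 2 of its 19-month values are zeros that may be failed estimates. Its log2 difference was -1.30 ± 0.20 at 19 against 3 months (limma adjusted p = 0.00377), a call kept in all 18 alternatives, and -0.94 ± 0.20 at 24 against 3 months (limma adjusted p = 0.0178), a call lost without 3 months replicate 1 or 2 (0.0591 and 0.0626) or 24 months replicate 4 (0.0897) and in the fit of all gene types (0.0715). The lipid enzyme gene Scd1, also a sebocyte transcript, lay at 38.1 to 48.8 FPKM at 3 months. At 19 months it lay at 18.7 to 19.4 FPKM and at 24 months at 17.4 to 20.4 FPKM. Scd1 was taken from the list of interfollicular and differentiated keratinocytes. There Krt1, Krt10, Ly6a and Krt79 also had log2 differences below 0 at 19 against 3 months, and Lor, Ivl, Lrig1 and Gata6 above 0. At 24 against 3 months Krt1 and Krt79 were below 0, and Krt10, Lor, Ivl, Ly6a, Lrig1 and Gata6 above 0. No list of sebocyte markers was examined. The part of sebocytes in the result was not tested. In bulk samples fewer cells of a type and less RNA per cell cannot be told apart.

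Calcrl, the receptor chain for CGRP and adrenomedullin, fell from 9.64 ± 0.938 to 4.60 ± 1.17 FPKM at 19 months (SD, n = 3 each; log2 difference -0.95 ± 0.21, limma adjusted p = 0.0333). By 24 months its mean was 5.99 ± 1.75 FPKM (limma adjusted p = 0.1). The call was kept in 9 of 18 alternatives. It was lost when any of the 3-month libraries (adjusted p = 0.134, 0.107 and 0.051) or 19 months replicate 2 or 3 (0.0761 and 0.169) was left out, and in the fit of all gene types (0.163). Cpe and Pam, enzymes that mature peptide hormones, and the urocortin gene Ucn2 were the most abundant tested genes of the list, at 53.3 to 84.3 FPKM, 11.6 to 23.7 FPKM and 7.87 to 18.6 FPKM, and none was called.

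Among neural adhesion genes the decline of Nrcam was set beside its own L1 family. Chl1, the close homologue of L1, fell from 22.6 ± 2.15 to 13.6 ± 1.69 FPKM at 19 months (SD, n = 3 each; log2 difference -0.70 ± 0.17, limma adjusted p = 0.0485) and had a mean of 17.6 ± 3.65 FPKM at 24 months (log2 difference -0.36 ± 0.17, limma adjusted p = 0.229). This call was kept in 6 of 18 alternatives. It was lost when any of the 3-month libraries (adjusted p = 0.127, 0.129 and 0.0742), any of the 19-month libraries (0.0787, 0.0765 and 0.208) or 24 months replicate 3 (0.0572) was left out, with median scaling (0.0535) and in the fit of all gene types (0.164). L1cam lay between 6.07 and 10.98 FPKM and was not called (limma adjusted p = 0.662 and 0.742 at 19 and 24 against 3 months). Nfasc did not exceed 0.00564 FPKM. At 3 months Chl1 therefore had the highest mean FPKM of the family, above Nrcam at 8.98 and L1cam at 7.52 FPKM.

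The IgLON relatives of Ntm were low. Opcml lay between 0.628 and 1.23 FPKM (limma adjusted p = 0.922 and 0.736), Lsamp did not exceed 0.113 FPKM and Negr1 did not exceed 0.0288 FPKM. Over the 6 tested adhesion genes, which also hold the abundant Cadm1 (49.6 to 73.4 FPKM) and Alcam (30.1 to 44.1 FPKM), the medians were -0.06 and -0.03.

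Of 22 tested adhesion partners, synaptic adhesion and guidance genes limma called 0 in each of the 3 comparisons, with 6, 2 and 3 at an unadjusted p under 0.05, where 15.7%, 21.6% and 12.8% of all tested genes were. The leucine-rich repeat adhesion gene Flrt3 was the most abundant, with a mean of 122.8 ± 21.96 FPKM when young, 68.9 ± 3.01 FPKM at 19 months and 78.7 ± 27.9 FPKM at 24 months (SD, n = 3; limma adjusted p = 0.0549 and 0.0714 against 3 months). It was called at 19 against 3 months in 4 of 18 alternatives, which were those without 24 months replicate 2 or 3 (0.0274 and 0.0159), with quantile normalization (0.0417) and with only the 6 libraries compared (0.0142). At 24 against 3 months it was called in 1 of 18, that without 24 months replicate 3 (0.012). The semaphorin receptor Plxnb2 and the semaphorin Sema3e lay between 63.1 and 85.9 FPKM and between 33.6 and 64.5 FPKM. The list medians were -0.19 and 0.00.

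**Figure D4:**
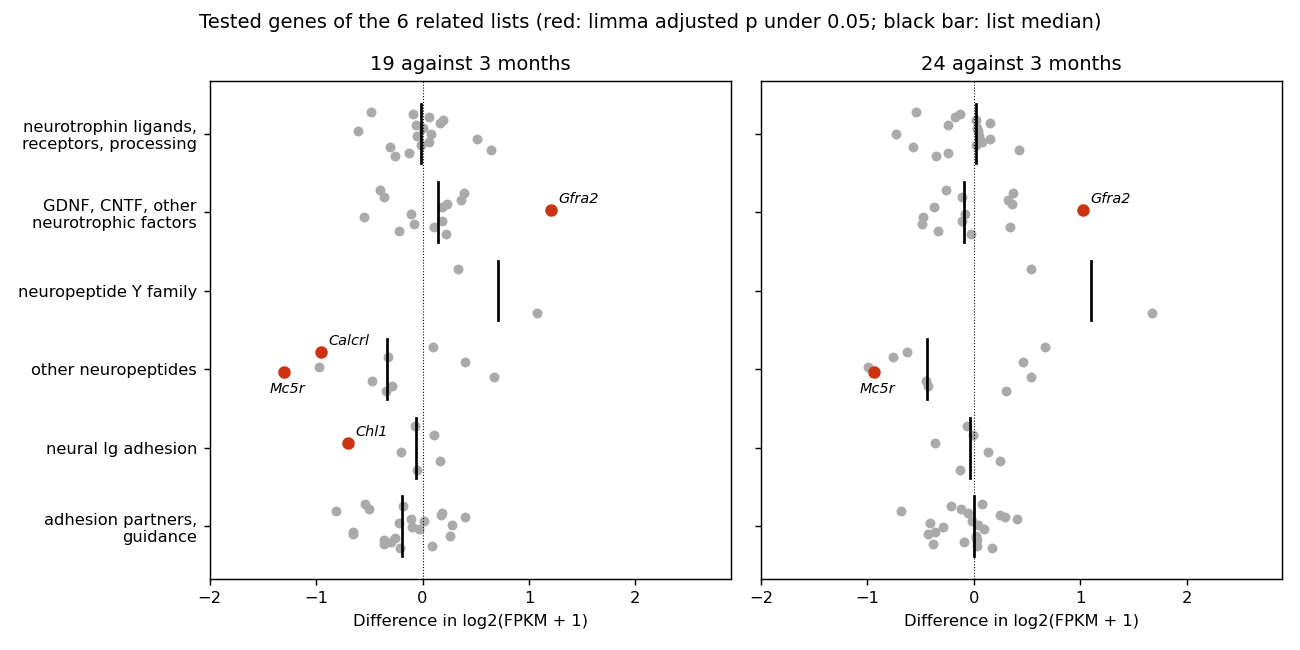
Difference in log2(FPKM + 1) (horizontal axis) of the 71 tested related genes in 6 lists (rows) at 19 against 3 months (left) and 24 against 3 months (right); red points have a limma adjusted p under 0.05 and are named, grey points do not, and black bars are list medians. At 19 months 29 of the 71 lie above 0, as do 5842 of all 11509 genes tested. Gfra2 at 1.21 is the farthest to the right at 19 months, and Mc5r at -1.30 the farthest to the left.

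The genes whose course over the 9 libraries lay closest to a member were found by the mean absolute difference between log2(FPKM + 1) values, each gene centred on its own mean. For Npy these were Mrgprb3, a Mas-related receptor gene, 2300005B03Rik and Usp18, which encodes the protease that removes ISG15, at 0.39, 0.40 and 0.42 log2 units per library. For Nrcam they were the zinc transporter gene Slc39a1, the serpin Serpinb3b and the nuclear pore gene Nup210, each at 0.22. For Ntm they were Aknad1, Kctd4 and Csrp2 at 0.24, 0.25 and 0.26, and for Ngfr they included 1700108M19Rik and Kctd17 at 0.23 and 0.27. Bdnf and Ntf3 spanned less than 1 log2 unit and were not matched. With 9 libraries and 11509 candidates, close matches are a description of these libraries.

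Markers of nerve-associated cells were low at every age. All 12 sensory neuron markers stayed below 1 FPKM in all 9 libraries, with summed levels of 0.647 to 1.004 FPKM at 3 months, 0.724 to 1.25 FPKM at 19 months and 0.638 to 1.06 FPKM at 24 months. Of 12 Schwann cell and glial markers 7 stayed below 1 FPKM in all libraries and Pmp2, Mag and Foxd3 were listed at 0 in all, and the sums were 8.54 to 12.2, 9.99 to 10.6 and 8.36 to 12.0 FPKM. Mbp stood at 4.68 to 7.63 FPKM in the 9 libraries. Of the 9 Merkel cell markers with a value 8 stayed below 1 FPKM, Sox2 was listed at 0 in all libraries, and the sums were 1.25 to 2.47, 2.45 to 3.93 and 1.44 to 3.72 FPKM.

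The summed levels of some other marker lists differed with age, and single genes held much of the melanocyte, fibroblast and immune sums. The 10 melanocyte markers summed to 38.1 to 47.0 FPKM at 3 months, 32.5 to 33.3 FPKM at 19 months and 29.5 to 35.6 FPKM at 24 months, and 1 of the 5 tested, the pigment enzyme gene Tyrp1, was called lower at each older age. Tyrp1 passed the filter through the 3-month libraries alone. Dct, Mlana, Pmel and Mitf, the other tested markers of the list, had log2 differences below 0 at both older ages and were not called. At 19 against 3 months these were -0.44, -0.73, -0.61 and -0.12, and at 24 against 3 months -0.72, -0.56, -0.46 and -0.18. Mitf, at 20.3 to 31.8 FPKM, made most of the melanocyte sum. The 12 dermal fibroblast and papilla markers summed to 6.36 to 8.77, 10.003 to 11.97 and 9.49 to 16.9 FPKM, with 0 of 2 tested called and 9 of 12 below 1 FPKM in all libraries. Sox18 was listed at 0 in all. Col1a2 made most of the fibroblast sum, with means of 5.80, 10.04 and 8.98 FPKM at 3, 19 and 24 months. Col1a1 went the other way, with means of 1.11, 0.713 and 0.945 FPKM. The 11 immune cell markers with a value summed to 39.6 to 79.4, 34.0 to 61.7 and 46.0 to 74.9 FPKM, so the ages overlapped. Cd74, at 17.6 to 53.7 FPKM, was the largest part of that sum. Of the immune markers Fcer1g was called lower at 19 against 3 months and higher at 24 against 19 months, and Cpa3 was listed at 0 in all. The 9 markers of interfollicular and differentiated keratinocytes with a value summed to 253 to 277, 171 to 192 and 219 to 332 FPKM. Krt79 and Scd1 were called lower at 19 against 3 months, Scd1 lower and Gata6 higher at 24 against 3 months, and Ly6a higher at 24 against 19 months. Tyrp1, Fcer1g, Krt79, Scd1, Gata6 and Ly6a are named because they were called, after their values were seen. The part of these cells in the levels of Npy, Nrcam and Ntm was not tested.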

How the data were processed

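RNA of 9 libraries of sorted mouse hair follicle stem cells was analysed from the FPKM values that the authors deposited, 1 column per library. The submitters' processing notes name TopHat, Cuffdiff and, as build, NCBIM37, and the sources used here do not give versions, settings or strand use. No step worth 1 read could be recovered from the low values, so depth is unknown and no count test was run. FPKM summed to between 553388 and 738569 per library over protein-coding rows. Over all rows the sum lay between 8704872 (24 months replicate 3) and 68767512 (3 months replicate 1). Every 3-month library had a higher sum over all rows than every older library, for a reason that was not tested.

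Gene types came from GENCODE M21 by Ensembl identifier (32916 of 37980 rows matched). The test was limma (version 3.58.1, R 4.3.3) applied to log2(FPKM + 1) with eBayes and trend, age as the term and all 9 libraries in 1 model, two-sided, Benjamini-Hochberg adjusted, threshold 0.05. It used 11509 protein-coding genes at 1 FPKM or more in 3 or more libraries, without rows (36 in the table) at 0 in every library of an age and at 5 FPKM or more in every library of another. It was tested on simulated data.

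The members, lists and this fit were chosen with earlier results of these data known, the fit when it was known to call more genes than that of all gene types. Calls numbered 180 for 19 against 3 months, 442 for 24 against 3 months and 107 for 24 against 19 months. Of these 38.3%, 39.1% and 76.6% were higher, and 48.9%, 53.2% and 82.9% with each library scaled to a common median. Named were the 6 members, every called gene of the lists, up to 3 of highest mean FPKM per list, the members' receptors, L1 and IgLON genes, and the 3 closest matches of members spanning at least 1 log2 unit. A few genes are not reported here and were left out of the lists after the values were seen. The figures were drawn with matplotlib 3.10.9.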

Additional observations from a re-analysis of the deposited data

How the results depend on the processing

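Over 18 differences of the 6 genes and 18 alternatives each, 320 of 324 values moved by less than the spread between libraries, 4 moved by more and 0 of those called changed sign. Much of that count was fixed in advance. A changed set of rows, a robust prior or a fit of only the 6 libraries compared alters the error and not the difference. Leaving out a library of the third age likewise keeps the difference. Small differences that were not called did reach 0 or change sign. They did so in 4 alternatives for Bdnf at 19 against 3 months. At 24 against 19 months they did so in 4 for Ntf3 and 3 for Ntm. The 4 values that moved by more were Npy and Nrcam under a pseudocount of 0.1, where Nrcam was at -1.99 at 24 against 3 months and -0.85 at 24 against 19 months. In the order 19 against 3, 24 against 3 and 24 against 19 months, limma without a filter on low values called 53, 118 and 0 genes. With all gene types it called 40, 29 and 7, and 27, 0 and 0 once rows listed at 0 were left out. Quantile normalization gave 59 at 24 against 19 months. Leaving out 1 library gave 69 to 230, 136 to 456 and 20 to 216. Counts at 19 against 3 months moved by over 1.5 times when 3 months replicate 1 (69), 3 months replicate 2 (92), 19 months replicate 2 (85) or 19 months replicate 3 (72) was left out. Those at 24 against 3 months did so for 3 months replicate 2 (150) and 24 months replicate 4 (136). Those at 24 against 19 months did so for 3 months replicate 2 (46), 19 months replicate 2 (20), 19 months replicate 3 (30) and 24 months replicates 2 (216), 3 (54) and 4 (22). Of related genes, 4, 2 and 0 were called, and leaving out 1 library gave 1 to 5, 0 to 3 and 0 to 2. At 19 against 3 months it was 1 when 3 months replicate 1, 3 months replicate 2, 19 months replicate 2 or 19 months replicate 3 was left out and 2 for 3 months replicate 3 or 19 months replicate 1. At 24 against 3 months it was 0 for 3 months replicates 1 and 2 and 1 for 19 months replicate 2. At 24 against 19 months it was 1 for 3 months replicate 1 and 2 for 19 months replicate 1. Under the other settings, at 19 against 3 months it was 1 without a filter, 1 with all gene types and 1 without their rows listed at 0. At 24 against 3 months it was 1 without a filter, with quantile normalization, with a robust prior or with the replicate block, and 0 with a pseudocount of 0.1 and in both fits of all gene types. At 24 against 19 months a robust prior gave 1. The causes were not tested. As a replicate block, the label numbers gave 158 genes at 24 against 3 months. Deviations of the 7 same-numbered pairs from the mean of their age correlated at -0.197 to 0.187, over 0.1 in 3. Whether same-numbered libraries share more than a number cannot be told from these correlations, as each deviation is from a mean of 3 libraries. Depth being unknown, no detection limit can be given for low genes such as Npy, and the number of libraries limits precision.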
